A study of Mus musculus with 7 samples.

Results

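The genes described here encode the respiratory chain, the complexes of the inner mitochondrial membrane that pass electrons from NADH and succinate to oxygen, and the ATP synthase that uses the resulting proton gradient. Members were chosen by gene symbol alone: names of complex I subunits (Nduf), succinate dehydrogenase (Sdh), ubiquinol-cytochrome c reductase (Uqcr), cytochrome c oxidase (Cox4 to Cox8), ATP synthase (Atp5) and the mitochondrially encoded mRNAs. Of 48526 genes listed, 103 symbols matched, and 6 of these were left out because their symbol ends in -ps. The remaining 97 members comprised 84 nuclear symbols and the 13 mRNAs of the mitochondrial genome. The nuclear members fell to complex I (36), complex II (4), complex III (8), complex IV (19) and complex V (17), and the mitochondrial ones to complex I (7), complex III (1), complex IV (3) and complex V (2). Ndufa4 is counted with complex I by its name, although the protein is known as a complex IV subunit, and Cox6c2, counted with complex IV, is annotated as a processed pseudogene.

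RNA came from the microdissected cardiac region of mouse embryos at embryonic day 8.5, of mixed genetic background, sequenced as 1 library per embryo. The 3 mutants were Hoxb1 Cre/+ and Nodal flox/nul: Cre recombinase, expressed from the Hoxb1 locus, removes the conditional Nodal allele in cells that have expressed Hoxb1, and the other Nodal allele is null. The 4 controls were Hoxb1 +/+ and Nodal flox/+, so they lacked Cre and kept both Hoxb1 alleles, and a difference between the groups cannot be assigned to Nodal alone. Nodal is the secreted signal of left identity, and the 2 groups were compared to find genes of the looping heart that respond to its loss. Mutant 1 and controls 2 and 4 were male and of substage E8.5f in the file header, whereas mutants 2 and 3 and controls 1 and 3 were female and of substage E8.5e, so sex and substage cannot be told apart.

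The mitochondrial genome encodes a few core subunits of complexes I, III, IV and V, while all other subunits, and the whole of complex II, are encoded in the nucleus and imported. Nuclear and mitochondrial subunits are assembled together, and the heart is among the tissues richest in these complexes. Several complex IV subunits exist in a ubiquitous and a striated muscle form, and the muscle forms gain ground as heart and skeletal muscle mature.

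Recovered reads, meaning those counted to genes and not all that were sequenced, numbered between 7155994 and 15122057 per library, with a median of 12623459. Nodal had 0 reads in each of the 3 mutants, against 9, 3, 6 and 0 reads in the 4 controls, and a count of 0 over the mutants allows up to 0.0755 CPM. Lefty2, a Nodal target, had 5, 2 and 4 reads in mutants and 717, 397, 307 and 227 in controls. All 17 cardiomyocyte markers had reads in every embryo. Their summed normalised count was 123494, 58793 and 79017 in mutants and 116467, 122763, 53381 and 158833 in controls. Neural tube markers, of which 12 of 18 had reads in every embryo, summed to 3206, 4639 and 6411 in mutants and 2819, 2264, 7362 and 2312 in controls. Yolk sac endoderm markers, of which 16 of 17 had reads in every embryo, varied most relative to their level, with sums of 1512, 18781 and 6655 in mutants and 18177, 11056, 7176 and 5483 in controls. Paraxial mesoderm markers (9 of 12 with reads in every embryo) summed to between 1915 and 4551 in mutants and 752 and 4013 in controls, and all 11 endothelial markers to between 7115 and 7659 in mutants and 6392 and 10277 in controls. The dissected pieces therefore held unequal amounts of RNA of several tissues within both groups. In bulk RNA, fewer cells of a type and less RNA per cell cannot be told apart.

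Sequence bears on how mitochondrial mRNAs can be counted, so it is given first. Long stretches of mouse mitochondrial DNA also lie, letter for letter, in the nuclear genome, and a read from such a stretch fits both places. Each member's longest GENCODE transcript was cut into windows of 130 bases, the read length, and each window was looked up in the transcripts of all other genes. For mt-Co3, 99.8% of windows were also found in the pseudogene Gm28437. The share was 99.5% for mt-Co2 (Gm28661, and in part Gm13341), 99.5% for mt-Atp6 (Gm10925), 98.2% for mt-Nd4l (Gm10222) and 97.3% for mt-Nd3 (Gm28438). It was 59.8% for mt-Nd4 (Gm28439) and 26.1% for mt-Co1 (Gm29216 and Gm13340), and 0% for mt-Nd1, mt-Nd2, mt-Nd5, mt-Nd6, mt-Cytb and mt-Atp8. Only annotated transcripts were searched, so 0% does not exclude a nuclear copy outside them. For mt-Atp8, which lies between mt-Co2 and mt-Atp6, such a copy remains possible. The copies Gm10925 (end 24614651) and Gm28661 (start 24614885) have bases between them that belong to neither. Most of these copies form a block on chromosome 1, on the minus strand, from Gm28439 (start 24611535) to Gm29216 (end 24616197) in GRCm38.

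The stretches below show this, from GENCODE M21 transcripts on GRCm38, with bases in capitals where they belong to a 130-base window shared with a nuclear pseudogene. The mt-Co3 stretch (chrM:8707-8766, plus strand) is shared throughout, the mt-Nd4 stretch (chrM:11013-11072, plus strand) spans the end of its copy, and those of mt-Nd2 (chrM:4014-4073, plus strand) and mt-Cytb (chrM:14245-14304, plus strand) are not shared.
mt-Co3: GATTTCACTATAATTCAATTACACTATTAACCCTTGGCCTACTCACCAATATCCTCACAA
mt-Nd4: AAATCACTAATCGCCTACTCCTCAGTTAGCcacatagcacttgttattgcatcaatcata
mt-Nd2: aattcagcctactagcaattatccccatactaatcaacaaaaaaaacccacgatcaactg
mt-Cytb: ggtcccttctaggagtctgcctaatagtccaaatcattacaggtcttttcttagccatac

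The counts split along the same line. The 5 mRNAs with near-complete nuclear copies, together with mt-Atp8, had at most 128 reads in any library, whereas the other 7 had between 3623 and 42965. The 9 nuclear copies listed in the table had between 5 and 239 reads per library, so the copies held few reads as well. mt-Atp8, a small ATP synthase subunit (chromosome M, 7766 to 7969), lies between mt-Co2 and mt-Atp6 and overlaps the start of mt-Atp6 (chromosome M, 7927 to 8607). The handling of reads that fit several places, not given in the sources used here, could bear on these levels; its part was not tested. The counts of these 6 mRNAs are uncertain, and the 7 others carry the account of mitochondrial expression below, with a limit for mt-Nd6 given there.

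**Figure D1:**
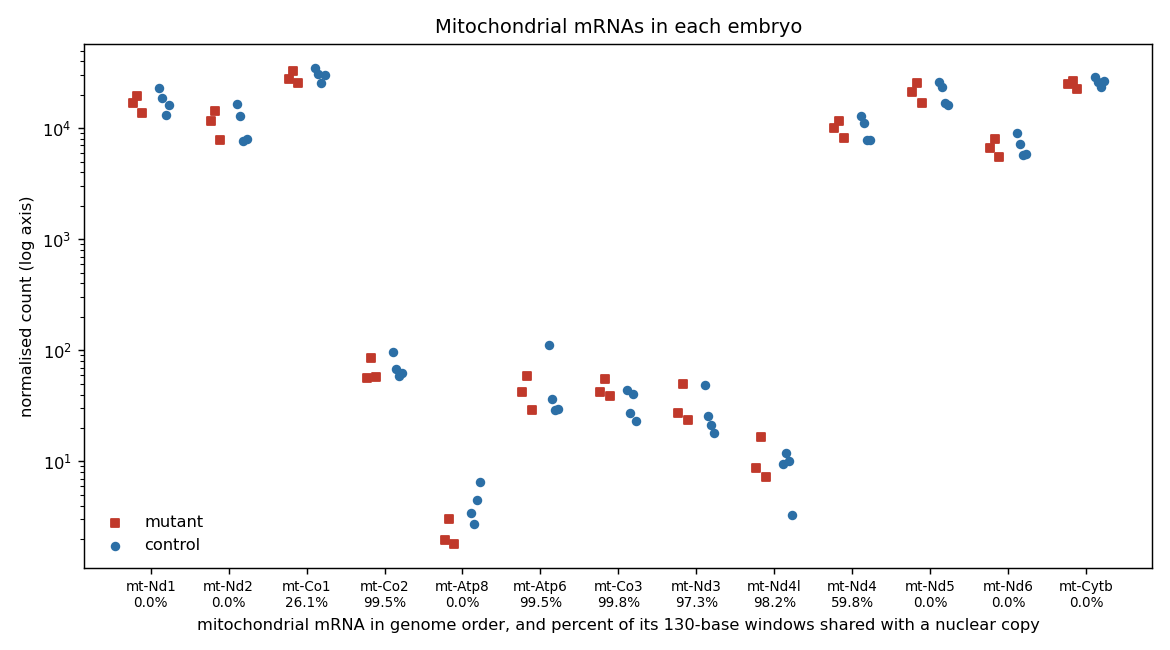
Normalised count (log axis) of each mitochondrial mRNA in each embryo, in genome order, mutants as squares left of controls as circles. Under each name is the percent of 130-base windows shared with an annotated nuclear copy. The mRNAs with at least 97.3% shared windows and mt-Atp8 lie at or below 110.6, the other 7 at or above 5561.

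None of the 7 well-counted mitochondrial mRNAs passed the test between mutants and controls, and their log2 fold changes lay between -0.08 and 0.04. mt-Cytb, the cytochrome b of complex III (chromosome M, 14145 to 15288), had normalised counts of 25278, 26734 and 22731 in mutants and 29018, 26361, 23397 and 26833 in controls. Its log2 fold change was -0.08 (SE 0.09, 95% bounds -0.29 and 0.12). mt-Co1, the catalytic subunit of complex IV (chromosome M, 5328 to 6872), had 27894, 32701 and 25758 in mutants against 35068, 30785, 25572 and 29899 in controls, a log2 fold change of -0.07 (SE 0.12, 95% bounds -0.35 and 0.20). The groups overlapped for both genes, and control 1 was the highest embryo.

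Among the well-counted complex I mRNAs, mt-Nd2 (chromosome M, 3914 to 4951), a membrane subunit, varied most relative to its level. It had 11513, 14369.6 and 7863 in mutants and 16685, 12916, 7604 and 8079.6 in controls, with means of 11249 ± 3261 (SD, n = 3) and 11321 ± 4307 (SD, n = 4) and a log2 fold change of 0.03 (SE 0.31). Each group thus held low and high embryos. mt-Nd1, a membrane subunit beside the quinone site, had 16788, 19448 and 13688 in mutants and 23071, 18621, 13288 and 16236 in controls (log2 fold change -0.08, SE 0.19). mt-Nd4, a proton-pumping membrane subunit, had 10104, 11749.9 and 8224 in mutants and 12835, 11176, 7897 and 7906 in controls (log2 fold change 0.03, SE 0.20). mt-Nd5, another proton-pumping subunit, had 21286, 25369 and 16844 in mutants and 26343, 23346, 16918 and 16303 in controls (log2 fold change 0.04, SE 0.20). For all 7 mRNAs control 1 was the highest embryo, and mutant 2 was the second for all but mt-Cytb.

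mt-Nd6 is the exception in layout: it is transcribed from the opposite strand, and its end overlaps that of mt-Nd5. It had 6698, 7928 and 5561 in mutants and 9127, 7145, 5803 and 5927 in controls, with a log2 fold change of -0.05 (SE 0.18). With the strand used in counting not given in the sources used here, reads of mt-Nd6 and of RNA antisense to it cannot be told apart. The libraries were made from polyadenylated-selected RNA, and how well mt-Nd6 was captured was not tested. Summaries over the 7 mRNAs include mt-Nd6 with this limit. Per kb of transcript, mt-Cytb had the highest level of the 7, at 21778 in mutants and 23079 in controls, and mt-Nd4 the lowest, at 7276 in mutants and 7223 in controls. This order is uncertain for mt-Nd4 and mt-Co1, of whose bases 63.6% and 40.6% lie in windows shared with nuclear copies. Among the 5 mRNAs with no shared window mt-Cytb was still the highest, and mt-Nd2 the lowest, at 10837 in mutants and 10907 in controls.

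Of the 6 mRNAs with uncertain counts, mt-Co3, a core complex IV subunit, had the smallest p of all mitochondrial members. Its normalised count was 42.0, 55.6 and 38.9 in mutants and 44.1, 27.5, 40.3 and 22.9 in controls, a log2 fold change of 0.45 (SE 0.28, unadjusted p = 0.141, adjusted p from limma = 0.967). mt-Co2, the subunit that receives electrons from cytochrome c, had 56.6, 85.2 and 57.9 in mutants and 96.8, 67.8, 58.2 and 62.2 in controls. mt-Atp6, the proton channel subunit of the ATP synthase, had 42.0, 58.6 and 28.9 in mutants and 110.6, 36.7, 29.1 and 29.4 in controls. mt-Nd3 and mt-Nd4l, small membrane subunits of complex I, had log2 fold changes of 0.27 (SE 0.40) and 0.33 (SE 0.49). mt-Nd3 lay between 23.5 and 50.2 in mutants and 18.0 and 48.4 in controls, and mt-Nd4l between 7.24 and 16.7 in mutants and 3.27 and 11.9 in controls. mt-Atp8, at 1.95, 3.04 and 1.81 in mutants and 3.46, 2.75, 4.47 and 6.54 in controls, did not pass the filter on low counts. These groups overlapped throughout.

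No nuclear member passed the test either. A gene was tested when its normalised count reached 10 in at least 3 libraries, which 81 of 84 nuclear and 12 of 13 mitochondrial members did, and a call is a limma p below 0.05 after Benjamini-Hochberg adjustment over all 15599 genes tested. No member was called (0 of 93), where 0.0128% of all genes were called in either direction. At an unadjusted p below 0.05 there were also 0 of 93 members, against 3.83% of all genes, and edgeR, DESeq2 and limma-voom on the recovered reads called 0 members as well. The 81 nuclear members split into 41 higher and 40 lower in mutants; their fold changes had a log2 median of 0.00092 and quartiles of -0.04 and 0.05. The median over all genes tested was 0.0058, with quartiles of -0.12 and 0.09. The 95% interval of the fold change lay within 0.3 log2 units of 0 for 60 of the 81, within 0.5 for 75 and within 1 for 79. The median standard error was 0.09 for nuclear members and 0.14 for all genes tested. No member is in the authors' deposited table of selected genes.

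**Figure D2:**
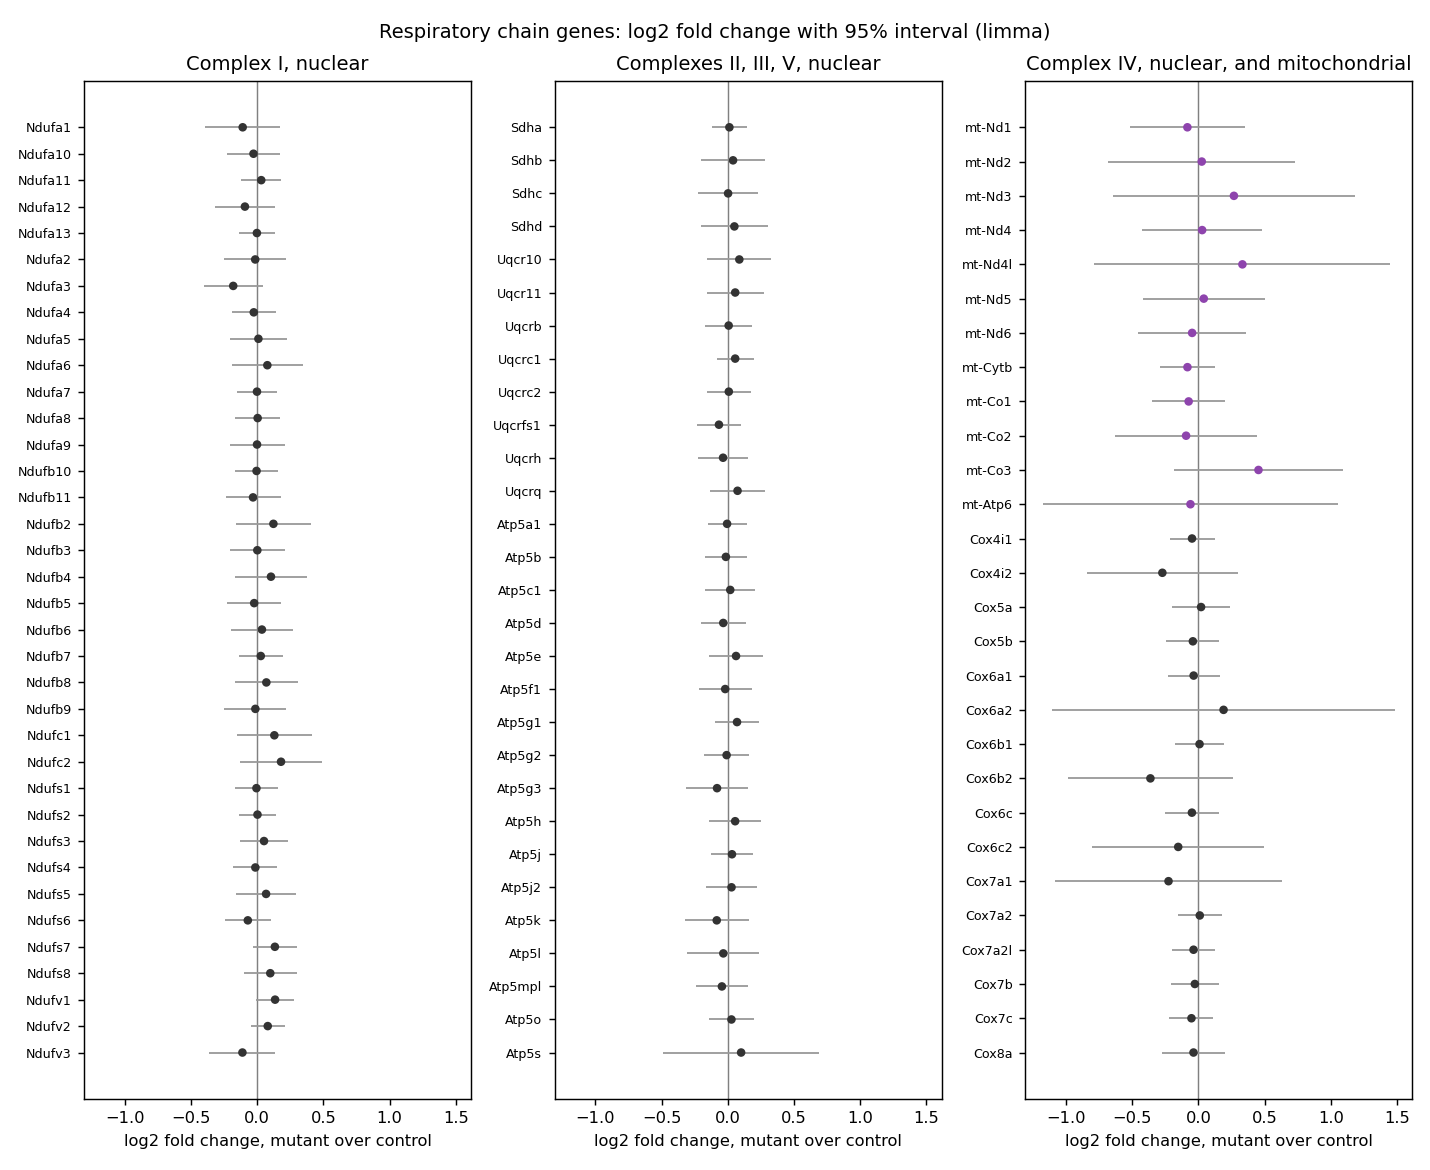
Log2 fold change, mutant over control, with its 95% interval (limma) for the 93 tested members, nuclear in grey-black and mitochondrial in purple. No interval excludes 0, and the 3 widest belong to Cox6a2, mt-Nd4l and mt-Atp6.

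Complex I, which takes electrons from NADH, had 19 nuclear members higher and 17 lower in mutants, with a median log2 fold change of 0.0015. Ndufs7 (chromosome 10, 80249121 to 80256794), which holds the last iron-sulphur cluster before ubiquinone, was the only member whose groups did not overlap. Its normalised count was 631, 565 and 564 in mutants and 542, 533, 504 and 559 in controls, a log2 fold change of 0.13 (SE 0.07, adjusted p from limma = 0.967). Groups did not overlap for 5.78% of all genes, with every mutant above every control for 3.7% and every mutant below for 2.08%, so 1 of 93 members is below the background. Ndufv1 (chromosome 19, 4007384 to 4012806), the NADH-binding subunit, had the smallest p of any member. It had 961, 861 and 938 in mutants and 868, 839.8, 823 and 816 in controls, a log2 fold change of 0.14 (SE 0.06, unadjusted p = 0.060, adjusted p from limma = 0.967); mutant 2 lay below control 1. Ndufa3, a small accessory subunit, had 388, 341 and 433 in mutants and 414, 466, 451 and 420.4 in controls, with a log2 fold change of -0.18 (SE 0.10) that was -0.09 without mutant 2 and -0.27 without mutant 3. Ndufv2, the partner of Ndufv1 in the NADH-oxidising module, averaged 1022 ± 26.1 in mutants (SD, n = 3) and 968 ± 35.6 in controls (SD, n = 4). Per kb of exon, Ndufb11 stood highest in complex I, at 783 in mutants and 803 in controls, and Ndufb2, whose annotated exons are long, lowest, at 20.4 in mutants and 18.7 in controls.

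All 4 genes of complex II, the succinate dehydrogenase shared with the citric acid cycle, lay slightly higher in mutants (median 0.03 on the log2 scale), and none approached the threshold. Sdha, the flavoprotein that oxidises succinate, had 2648, 2539.8 and 2715 in mutants and 2544, 2771, 2492 and 2648 in controls, a log2 fold change of 0.01 (SE 0.06). Its groups overlapped fully. Sdhb, the iron-sulphur subunit, had a log2 fold change of 0.04 (SE 0.11), and the membrane anchors Sdhc and Sdhd had 0.0022 (SE 0.10) and 0.05 (SE 0.11).

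In complex III, which passes electrons from ubiquinol to cytochrome c, 6 of 8 nuclear members were higher in mutants, with a median of 0.03. Uqcrc1, a core subunit, had 2031, 1814 and 1925 in mutants and 1862, 1913, 1744 and 1878 in controls, a log2 fold change of 0.06 (SE 0.06). Uqcrfs1, the Rieske iron-sulphur protein, had 785, 700.2 and 713 in mutants and 778, 784, 706 and 802 in controls, a log2 fold change of -0.07 (SE 0.07). The groups overlapped for both. Uqcr10 and Uqcrq, small accessory subunits, had 0.09 (SE 0.11) and 0.07 (SE 0.09).

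Complex IV, cytochrome c oxidase, leaned the other way, with 4 nuclear members higher and 12 lower and a median of -0.04; none was called. Without the pseudogene Cox6c2, which had a log2 fold change of -0.15 (SE 0.28) at normalised counts of 9.76 to 14.5 in mutants and 11.5 to 16.4 in controls, 11 were lower. Cox4i1, the ubiquitous form of a regulatory subunit, had 1649.9, 1424 and 1437 in mutants and 1621, 1533, 1442 and 1616 in controls, a log2 fold change of -0.05 (SE 0.07). Cox7c, a small subunit for which 12.1% of windows are shared with a processed pseudogene, averaged 923 ± 71.1 in mutants (SD, n = 3) and 956 ± 45.7 in controls (SD, n = 4). Cardiomyocyte markers were also lower in mutants for 17 of 17 genes tested, with a median log2 fold change of -0.28, as were yolk sac endoderm markers for 16 of 16 (median -0.81) and endothelial markers for 11 of 11 (median -0.22). Neural tube markers were higher for 13 of 14 (median 0.92) and paraxial mesoderm markers for 7 of 9 (median 0.49). No marker in these lists was called, and their part in this lean was not tested. Per kb of exon, Cox8a and Cox6a1 were the highest nuclear members of complex IV, at 1952 and 1851 in mutants and 1995 and 1894 in controls.

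Complex V, the ATP synthase, had 8 nuclear members higher and 9 lower, with a median of -0.0054. Atp5b, the catalytic beta subunit, had the highest level per kb of all nuclear members, at 2811 in mutants and 2841 in controls. Its normalised count was 12654, 11365 and 11708 in mutants and 11818, 12089, 11183 and 13054 in controls, a log2 fold change of -0.01 (SE 0.07, 95% bounds -0.17 and 0.14). The membrane ring subunit c is made from 3 genes that encode the same mature protein. Atp5g1 supplied 28.8% ± 0.691 of their summed reads in mutants (SD, n = 3) and 27.1% ± 1.50 in controls (SD, n = 4), Atp5g2 27.4% ± 0.720 and 27.3% ± 1.98, and Atp5g3 43.8% ± 1.41 and 45.7% ± 2.56. Their log2 fold changes were 0.07 (SE 0.07), -0.0091 (SE 0.08) and -0.08 (SE 0.10). Of the remaining subunits with the smallest p, Atp5e and Atp5k had 0.06 (SE 0.09) and -0.08 (SE 0.105); that of Atp5e was -0.02 without mutant 1 and 0.13 without mutant 2. Atp5s, a coupling factor rather than a core subunit, was the lowest member of complex V per kb, at 30.1 in mutants and 28.1 in controls.

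The balance between the 2 genomes differed between the groups by less than the spread within them. All nuclear members together took 0.776%, 0.701% and 0.729% of reads in mutants and 0.756%, 0.728%, 0.707% and 0.765% in controls, with means of 0.735% ± 0.038 (SD, n = 3) and 0.739% ± 0.027 (SD, n = 4). The 13 mitochondrial mRNAs took 1.02%, 1.2% and 0.883% in mutants and 1.33%, 1.12%, 0.896% and 0.951% in controls, with means of 1.04% ± 0.161 and 1.08% ± 0.197. The mean log2 level of the 7 well-counted mitochondrial mRNAs exceeded that of the 81 nuclear members by 4.47, 4.91 and 4.33 in mutants and by 4.91, 4.73, 4.4 and 4.35 in controls. The difference between the group means of this balance was -0.03, against SDs of 0.30 in mutants and 0.27 in controls. The mitochondrial ribosomal RNAs mt-Rnr1 and mt-Rnr2 had log2 fold changes of -0.36 (SE 0.22) and -0.47 (SE 0.25), neither of them called. Because the libraries were made from polyadenylated-selected RNA, these counts may not follow the level of ribosomal RNA.

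Muscle isoforms of complex IV were minor and varied between embryos by more than between groups. Cox6a2 (chromosome 7, 128205435 to 128206387), the striated muscle form of subunit 6a, had normalised counts of 70.3, 16 and 38.9 in mutants and 35.4, 41.3, 13.4 and 45.8 in controls. Its log2 fold change was 0.19 (SE 0.56, 95% bounds -1.10 and 1.48). It supplied 4.61%, 1.33% and 3.0% of the reads of the pair with Cox6a1 in mutants and 2.58%, 3.02%, 1.08% and 3.11% in controls, with mutant 2 and control 3 the lowest. Cox7a1 (chromosome 7, 30184144 to 30186078), the muscle form of subunit 7a, had 48.8, 19.8 and 35.3 in mutants and 43.2, 47.7, 22.4 and 45.8 in controls, a log2 fold change of -0.23 (SE 0.37). Its share of the pair with Cox7a2 was 5.45%, 2.43% and 4.13% in mutants and 4.89%, 5.27%, 2.97% and 5.20% in controls, and the same 2 embryos were the lowest.

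Cox4i2, the form of subunit 4 known from lung and from the response to low oxygen, had 145, 65.5 and 84.1 in mutants and 112, 114, 106 and 118 in controls. Its log2 fold change was -0.27 (SE 0.25), and its share of the pair with Cox4i1 was 8.10%, 4.39% and 5.53% in mutants, outside the 6.48% to 6.90% of the controls on both sides. Without mutant 1 the log2 fold change was -0.59, and without mutant 2 it was -0.02. Cox6b2, the testis form of subunit 6b, supplied 1.67%, 2.27% and 2.49% of the pair with Cox6b1 in mutants and 2.43%, 1.91%, 4.17% and 2.88% in controls. The ubiquitous partners had log2 fold changes of -0.04 (SE 0.085) for Cox6a1, 0.0086 (SE 0.08) for Cox6b1, 0.01 (SE 0.07) for Cox7a2, -0.03 (SE 0.08) for Cox7b and -0.04 (SE 0.10) for Cox8a. The muscle form Cox8b had 1 read, in control 3, and Cox8c had 0 reads in all 7 libraries. Cox7b2 had normalised counts of 0, 0.761 and 0 in mutants and 1.73, 2.75, 0 and 0 in controls.

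**Figure D3:**
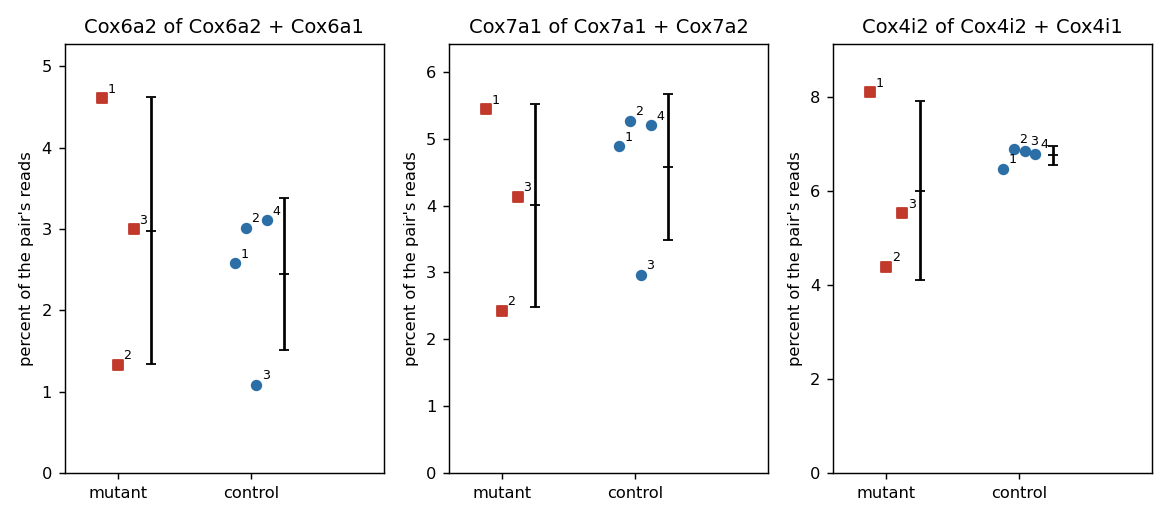
Percent of an isoform pair's reads that came from Cox6a2, Cox7a1 and Cox4i2 in each embryo, mutants left of controls, with the group mean and SD as a bar; numbers are embryos. Mutant 2 and control 3 are the lowest for Cox6a2 and Cox7a1, while for Cox4i2 the controls lie between 6.48% and 6.90%.

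Nuclear members were higher in embryos with more cardiomyocyte RNA, a relation looked for after the values were seen. Their mean log2 level was 9.43, 9.21 and 9.29 in mutants and 9.36, 9.30, 9.21 and 9.37 in controls, beside cardiomyocyte levels (mean log2 of the 17 markers) of 11.78, 10.47 and 10.93 in mutants and 11.58, 11.71, 10.27 and 12.01 in controls. Mutant 2 and control 3 were the lowest in both. Other tissues varied along the same embryos. Neural tube markers had mean log2 levels of 6.85, 7.40 and 7.80 in mutants 2 and 3 and control 3, against 4.04 to 5.28 elsewhere. Primitive erythroid markers, of which 5 of 12 had reads in every embryo, had 4.35, 3.62 and 3.11 there, against 4.95 to 6.78. The slopes below therefore cannot be assigned to cardiomyocyte RNA apart from these tissues. With genotype in the fit, 76 of 81 nuclear members had a positive slope on the cardiomyocyte level, with a median of 0.10 log2 units per log2 unit, against 8016 of 15599 genes and a median of 0.0055. At an unadjusted p below 0.05 there were 32 of 81, all with a positive slope, against 20.2% of all genes in either direction and 11.1% with a positive slope. With sex in the fit 73 of 81 slopes were positive, with a median of 0.13, and none was called. With library-size scaling 69 of 81 were positive, with a median of 0.07. Without mutant 2 and control 3, 67 of 81 were positive, with a median of 0.14, and none was called. All slopes use the same 7 embryos and the same marker level, so they are not independent of each other. They are small beside those of the muscle isoforms. The 7 well-counted mitochondrial mRNAs had positive slopes as well, 7 of 7 with a median of 0.08, and none had an unadjusted p below 0.05.

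Cox6a2 rose by 1.17 log2 units per unit of cardiomyocyte level (SE 0.19, adjusted p from limma = 0.0122), and Cox7a1 by 0.73 (SE 0.17, adjusted p from limma = 0.0452). These were the 2 of 81 nuclear members called, while 5.87% of all genes were called and 3.63% were called with a positive slope, so the number called after adjustment is below the background, unlike the number at an unadjusted p below 0.05. Without mutant 2 and control 3, the 2 embryos farthest from the median level, the slope of Cox6a2 was 0.94 (adjusted p from limma = 0.505) and that of Cox7a1 0.45 (adjusted p from limma = 0.833). With 1 embryo left out, the slope of Cox6a2 lay between 1.004 and 1.43 and that of Cox7a1 between 0.62 and 0.83. Cox6a2 nevertheless missed the threshold without mutant 1 (slope 1.101, adjusted p from limma = 0.0680), without control 3 (slope 1.43, adjusted p from limma = 0.0657) and with sex in the fit (slope 1.19, adjusted p from limma = 0.321). Cox7a1 missed it when any single embryo was left out (adjusted p from limma between 0.0605 and 0.287), with sex (slope 0.78, adjusted p from limma = 0.466), number range (0.0569) or library-size scaling (0.0543), and with edgeR (0.0591). The 3 males had cardiomyocyte levels of 11.78, 11.71 and 12.01.

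**Figure D4:**
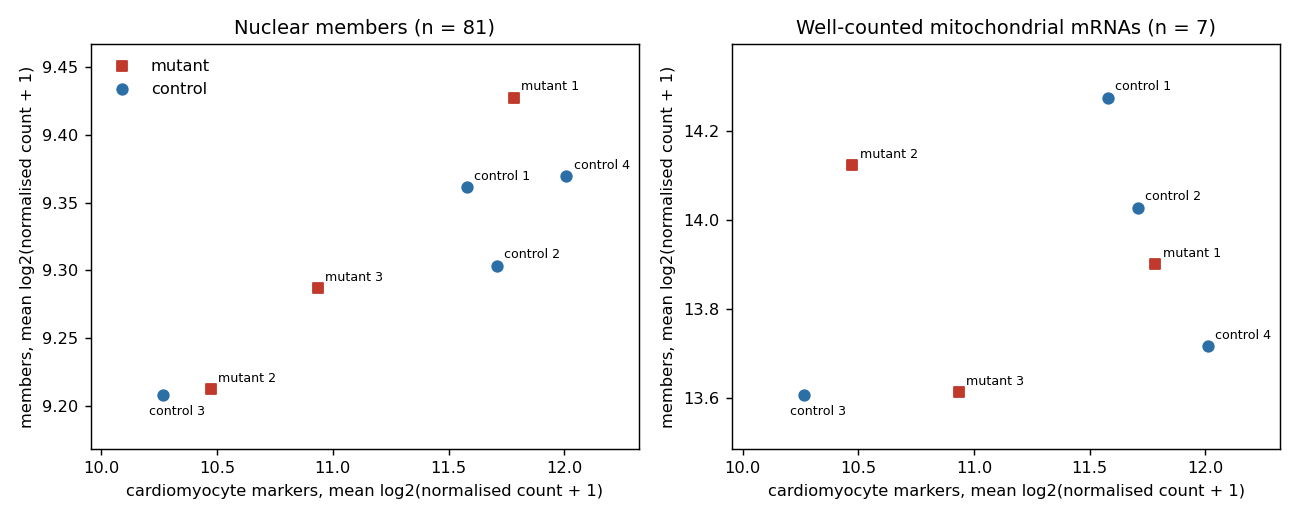
Mean log2(normalised count + 1) of the 81 tested nuclear members (left) and of the 7 well-counted mitochondrial mRNAs (right) against that of 17 cardiomyocyte markers, 1 point per embryo. Nuclear levels run from 9.21 in mutant 2 and control 3 to 9.43 in mutant 1; mitochondrial levels are highest in control 1 and lowest in control 3 and mutant 3.

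Mitochondrial mRNAs separated by the range of the embryo number, a split noticed in the values and then examined. The names of mutant 3 and controls 3 and 4 carry higher numbers than those of mutants 1 and 2 and controls 1 and 2; the labels do not say what the numbers stand for. Log2 differences between the number ranges come from a limma fit that also holds genotype. mt-Nd2 averaged 7849 ± 238 in higher-numbered embryos (SD, n = 3) and 13871 ± 2209 in lower-numbered ones (SD, n = 4), a log2 difference of -0.83 (SE 0.12, adjusted p from limma = 0.245). mt-Nd5 averaged 16688 ± 335 and 24086 ± 2246 (log2 difference -0.53, SE 0.08, adjusted p from limma = 0.312), mt-Nd4 8009 ± 186 and 11466 ± 1140 (-0.52, SE 0.08), mt-Nd1 14404 ± 1599 and 19482 ± 2638 (-0.46, SE 0.11) and mt-Nd6 5764 ± 186 and 7724 ± 1064 (-0.43, SE 0.10), each pair of means in the same order. For these 5 mRNAs no higher-numbered embryo reached a lower-numbered one.

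The ranges overlapped for mt-Co1, with a log2 difference of -0.24 (SE 0.09), and for mt-Cytb, with -0.16 (SE 0.07). All 7 thus lay lower in higher-numbered embryos, with a median of -0.46, and 6 of 7 had an unadjusted p below 0.05, where 10.6% of all genes did. None was called after adjustment over all genes, of which 0.0256% were called. The number ranges did not overlap for 5 of 7 mRNAs, against 10.9% of all genes and 6.0% with every higher-numbered embryo below. The split was chosen from the values of these same mRNAs, so their p-values and the shares over all genes cannot serve as support for it. The mRNAs are also cut from long shared precursor transcripts, so they are not independent of each other. Among nuclear members 61 of 81 were lower in higher-numbered embryos, with a median of only -0.04, and the ranges did not overlap for 4 of 81.

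Other measures also differed between the number ranges, but not in every embryo. Recovered reads were 12623459, 10037739 and 7155994 in higher-numbered embryos and 11998513, 15122057, 13223545 and 12693876 in lower-numbered ones, so the ranges overlapped. Neural tube markers were higher in higher-numbered embryos, with a median log2 difference of 1.33, as were paraxial mesoderm markers, with 0.83. Cardiomyocyte, yolk sac endoderm and endothelial markers were lower, with -0.37, -0.36 and -0.26. Control 4, a higher-numbered embryo, did not follow these medians for cardiomyocyte and neural tube markers. Its cardiomyocyte sum, 158833, was the highest of all embryos. Its neural tube sum, 2312, lay within the 2264 to 4639 of the lower-numbered embryos, unlike 6411 in mutant 3 and 7362 in control 3. The part of these measures in the mitochondrial difference was not tested. Within the lower-numbered embryos the log2 difference of mutants from controls was -0.20 for mt-Nd1 and -0.19 for mt-Nd2. Within the higher-numbered ones the single mutant differed from the 2 controls by -0.10 for mt-Nd1 and 0.0046 for mt-Nd2.

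**Figure D5:**
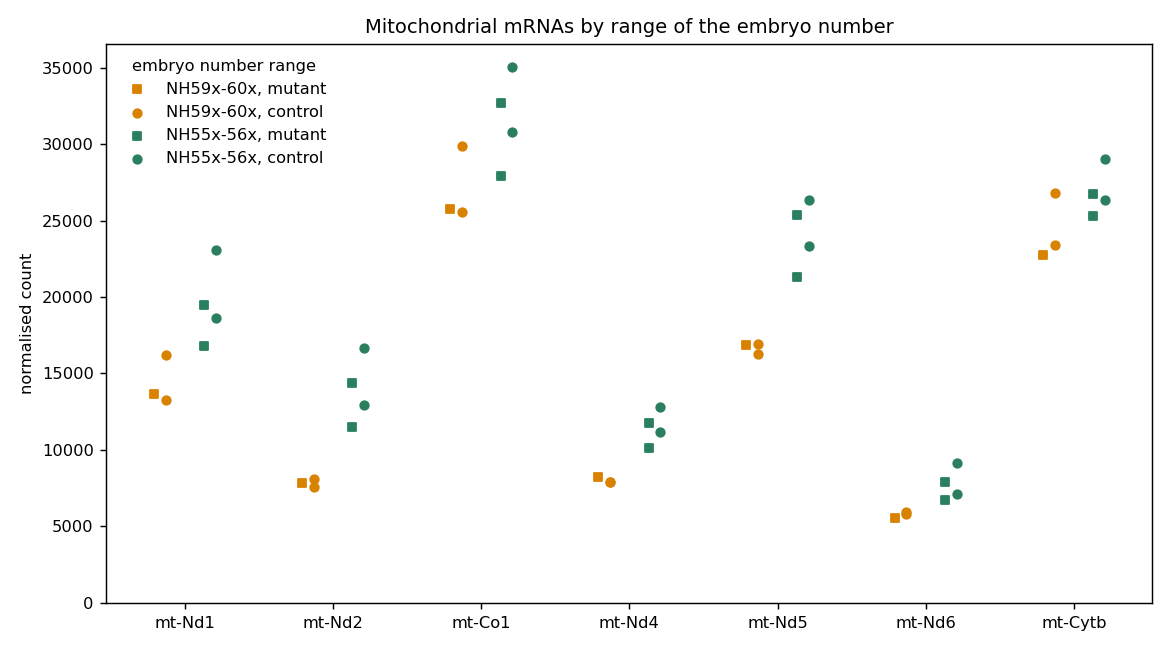
Normalised count of the 7 well-counted mitochondrial mRNAs in embryos with higher numbers (NH59x-60x, orange, left) and lower numbers (NH55x-56x, green, right), mutants as squares and controls as circles. The ranges do not overlap for mt-Nd1, mt-Nd2, mt-Nd4, mt-Nd5 and mt-Nd6 and do for mt-Co1 and mt-Cytb.

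Male embryos, which the header also gives as the later-lettered substage, had slightly higher nuclear members: 68 of 81 were higher in males with genotype in the fit, with a median log2 difference of 0.10, against 8045 of 15599 genes and a median of 0.0071. None was called, where 0.0449% of all genes were, and 8 of 81 had an unadjusted p below 0.05, close to the 10.5% of all genes. Cox6a2 was among them, at 1.16 log2 units (SE 0.42, adjusted p from limma = 0.426). Cardiomyocyte sums were 123494, 122763 and 158833 in males and 58793, 79017, 116467 and 53381 in females, so the males and 1 female, control 1, had the high sums, and sex and substage cannot be told apart. The mitochondrial mRNAs did not share this lean, with 2 of 7 higher in males and a median of -0.04. Whether the genotype effect differed between the sexes could not be judged, because mutant 1 was the only male mutant.

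Genes that build, copy and translate the mitochondrial genome were examined as lists, and no gene in them was called between mutants and controls. Counts are given beside those of all genes tested, of which 8065 of 15599 were higher in mutants. Unadjusted limma p was below 0.05 for 3 of 77 mitochondrial ribosomal proteins, 2 of 19 DNA maintenance genes and 2 of 13 biogenesis regulators. The same held for 1 of 19 genes listed for complex I assembly, 1 of 19 carriers and antioxidants, and none in the other lists. Among all genes the share was 3.83%. Every mutant lay above every control for 8 of 77 mitochondrial ribosomal proteins and 3.7% of all genes, and below for 1 of 77 and 2.08%. Of the mitochondrial ribosomal proteins, which translate the 13 mRNAs, 58 of 77 were higher, at a median of 0.04 on the log2 scale. Mrpl39 and Mrpl37 had 0.16 (SE 0.06) and 0.15 (SE 0.06), and Mrpl33 had -0.26 (SE 0.10). Of the genes that maintain and transcribe mitochondrial DNA, 14 of 19 were higher, with a median of 0.07. Tfam, the factor that packages mitochondrial DNA and starts its transcription, had 935, 996 and 949 in mutants and 866, 854, 896 and 805 in controls, a log2 fold change of 0.17 (SE 0.06, unadjusted p = 0.024, adjusted p from limma = 0.967). Every mutant lay above every control for Tfam and for Polrmt, the mitochondrial RNA polymerase (0.14, SE 0.06), and the groups overlapped for Twnk, the replicative helicase (0.23, SE 0.09).

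Regulators of mitochondrial biogenesis were higher for 11 of 13 genes, with a median of 0.06. Pprc1, a coactivator related to PGC-1, had 3512, 3375 and 3516 in mutants and 2989, 3196, 3276 and 2909 in controls, a log2 fold change of 0.17 (SE 0.06, unadjusted p = 0.021, adjusted p from limma = 0.967). Myc had 0.24 (SE 0.09) and Nrf1, a transcription factor of many respiratory chain promoters, 0.16 (SE 0.08). Mitochondrial RNA processing genes were higher for 14 of 19, with a median of 0.05, and Tbrg4, Elac2 and Lrpprc, all linked to the maturation or stability of mitochondrial RNA, had 0.13 (SE 0.06), 0.11 (SE 0.07) and 0.10 (SE 0.07). The 7 well-counted mitochondrial mRNAs had a median of -0.05.

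Assembly factors were split. Those listed for complex I, among them Cox18, which is named for cytochrome c oxidase, were higher for 11 of 19 genes (median 0.03). Tmem126b, which helps join the membrane arm of complex I, had 231, 231 and 213 in mutants and 205, 183, 169 and 152 in controls, a log2 fold change of 0.35 (SE 0.12, unadjusted p = 0.018, adjusted p from limma = 0.967). Those of complexes II to V were higher for 12 of 29 (median -0.02), with Sdhaf2, Coa7 and Cox16 at 0.18 (SE 0.08), 0.15 (SE 0.08) and -0.33 (SE 0.19). Cytochrome c and coenzyme Q genes were higher for 5 of 15 (median -0.02), with Coq7 at 0.13 (SE 0.07), and citric acid cycle genes for 13 of 18 (median 0.03), with the fumarase Fh1 at 0.12 (SE 0.06). Import genes were higher for 14 of 22 (median 0.04), with Timm8a1 at 0.24 (SE 0.12).

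Carriers and antioxidants were higher for 6 of 19 genes, with a median of -0.01. Ucp2, an inner membrane carrier of the uncoupling protein family, had the smallest p of all the listed genes. It had 309, 322 and 365 in mutants and 519, 441, 435 and 416 in controls, so every mutant lay below every control. This held for 1 of 19 genes in this list and for 2.08% of all genes. Its log2 fold change was -0.45 (SE 0.10, unadjusted p = 0.002, adjusted p from limma = 0.967).

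Promoters of nuclear members were searched because a few transcription factors are known to bind many of them. RefSeq promoters (GRCm38.p6, 250 bases before to 50 after each start) were at hand for 66 of the 84 nuclear members, as 71 promoters, and were compared with all 32851 promoters of the same length, on both strands. The paired site of NRF1, GCGC in 2 copies with A and any base between, occurred in 25.4% of member promoters and 4.6% of all promoters. Its palindromic form, with T as that base and contained in the first, occurred in 7.04% and 0.971%. CCGGAAG, an ETS motif of the kind GABP binds, occurred in 22.5% and 8.86%, AAGGTCA, the core site of oestrogen-related receptors, in 11.3% and 4.72%, and CCAAT in 42.3% and 37.4%. These are matches of letters, not binding sites.

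The promoters of 3 complex IV genes show the range, with matches in capitals. Cox6a1 (chr5:115348909-115349208, minus strand), the ubiquitous isoform and among the highest members per kb, has 4 matches: a palindromic NRF1 site, a second NRF1 site, CCAAT, and CCGGAAG read on the opposite strand. Cox7a1 (chr7:30183921-30184220, plus strand), the muscle isoform, has 2 matches, both CCAAT on the opposite strand. Cox7a2 (chr9:79759804-79760103, minus strand), its ubiquitous partner at 820.2 ± 26.5 in mutants (SD, n = 3) and 816 ± 56.9 in controls (SD, n = 4), has 0 matches in this window.
Cox6a1: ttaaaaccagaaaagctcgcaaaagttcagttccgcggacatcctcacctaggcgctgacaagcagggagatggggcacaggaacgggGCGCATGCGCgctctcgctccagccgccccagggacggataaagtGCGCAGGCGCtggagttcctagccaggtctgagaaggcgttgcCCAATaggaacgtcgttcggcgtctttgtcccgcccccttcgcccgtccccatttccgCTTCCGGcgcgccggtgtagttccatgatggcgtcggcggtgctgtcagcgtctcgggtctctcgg
Cox7a1: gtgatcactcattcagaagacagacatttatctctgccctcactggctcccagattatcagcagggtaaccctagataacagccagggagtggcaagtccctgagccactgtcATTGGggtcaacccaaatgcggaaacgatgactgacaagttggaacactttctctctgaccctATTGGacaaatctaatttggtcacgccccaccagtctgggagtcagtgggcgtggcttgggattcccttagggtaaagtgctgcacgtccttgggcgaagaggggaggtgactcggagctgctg
Cox7a2: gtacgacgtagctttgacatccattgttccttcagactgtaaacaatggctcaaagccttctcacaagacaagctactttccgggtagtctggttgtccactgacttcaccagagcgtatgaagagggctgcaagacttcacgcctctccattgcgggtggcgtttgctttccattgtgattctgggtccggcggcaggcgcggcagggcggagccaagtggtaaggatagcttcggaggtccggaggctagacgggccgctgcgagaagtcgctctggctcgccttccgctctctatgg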

How the data were processed

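RNA was extracted, and libraries were made from 20 ng of polyadenylated-selected RNA and sequenced as paired reads of 130 bases, per the labels' protocols. HISAT2, featureCounts, DESeq2, edgeR, limma and the build GRCm38 appear in the submitters' processing notes, with versions, annotation and strand setting not given in the sources used here. The deposited signal values are gene counts that the authors divided by 1 size factor per library: 100% were whole multiples of 1 read within a tolerance of 0.1, so whole reads were recovered. The authors' deposited table also holds a ratio of group means and a p-value per gene, per the file headers.

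The 15599 genes that reached a normalised count of 10 in 3 or more libraries were tested with limma 3.58.1 (R 4.3.3; trended empirical Bayes, no covariate) on log2(normalised count + 1), with Benjamini-Hochberg adjustment at 0.05; fold changes on this scale understate those of low genes. edgeR 4.0.16, DESeq2 1.42.0 and limma-voom on recovered reads were alternatives. Only the main limma fit was run on simulated counts, with changes of 1 log2 unit, larger than any estimated for the members. Levels per kb use GENCODE M21 exon lengths. Per complex, members named are the 4 with the smallest p, those with isoforms or groups that do not overlap, and the highest and lowest per kb; per list, the 3 with the smallest p. The members and lists were chosen with earlier results of these data known. Nothing in the labels says the embryos came from separate litters, so p-values measure the spread between these embryos. Intervals and the floor of 3 reads for a count of 0 cover only counting error or the spread between embryos.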

Additional observations from a re-analysis of the deposited data

Results flagged for a closer look

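Of 96 members with values in the 4 controls, 2 were flagged for 1 control far from the other 3, by Dixon's test at the 95% level, which chance would flag in about 1 group in 20. Cox8b, whose only read was in control 3, is not counted among these 2. mt-Atp6 stood at 110.6 in control 1, against 36.7, 29.1 and 29.4 in the other controls and 42.0, 58.6 and 28.9 in mutants; its count is uncertain because of its nuclear copy. Ndufb5, an accessory subunit of complex I named only for this, stood at 449.6 in control 3, against 544, 554 and 543 in the other controls, and at 516, 502 and 520.1 in mutants; 13.4% of its windows are shared with the overlapping gene Mrpl47.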

How the results depend on the processing

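No member was called under any of the 20 alternatives to the genotype fit (other tools, scaling, filters, pseudocounts, covariates, females alone, each embryo left out). The count over all genes, 2 in the fit as reported, was 1 with edgeR, 8 with DESeq2, 0 with limma-voom, 1 with sex and 1 with embryo number range as a covariate, 0 in females alone, and between 1 and 9 with 1 embryo left out, 9 without control 3. Of 873 values of 44 named members under alternatives, 91 had the other sign, in 27 members, none of them called in any fit. The medians of nuclear and mitochondrial members and the balance between them moved by less than 1 SD within a group. The number-range median of the 7 well-counted mitochondrial mRNAs, -0.46, kept its sign in all alternatives tried, chosen after seeing the data. No paired analysis was possible because the labels give no replicate numbers shared between the groups. With 3 mutants, differences smaller than the intervals printed could not be detected, and the 5 mitochondrial mRNAs with near-complete nuclear copies and mt-Atp8 had too few counted reads to be judged.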
